A study of Homo sapiens with 18 samples.

Results

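The 10 genes described here encode enzymes that methylate histone H3 at lysine 9 (H3K9), the HP1 proteins that bind the mark, and a corepressor. They are EHMT1, EHMT2, SUV39H1, SUV39H2, SETDB1, SETDB2, CBX1, CBX3, CBX5 and the corepressor gene TRIM28. They were taken by name from the gene count table, which lists 57133 genes, and all 10 were found there and passed the filter on low counts, as 17672 genes did. RNA-seq had been made from human induced PSCs of the line PGP1, kept in mTeSR1 medium on Matrigel. There were 2 libraries each of wild-type (WT) cells and of KO1 and KO2, which are clones of PGP1 in which paired guide RNAs and Cas9 had removed part of the first exon of PCGF6 from both alleles. Each knockout is 1 clone, so what a clone carries besides the deletion cannot be told apart from it, and the sources used here do not say whether the libraries of a group came from separate cultures. P-values for the clones taken one by one therefore measure the spread between libraries of a group, which may be technical. Where both clones are pooled against WT, their libraries are treated as separate samples of 1 group. The spread then also holds differences between the clones. Total counts ran from 15877396 to 18918609 a library.

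H3K9 methylation marks silent chromatin. EHMT1 (GLP) and EHMT2 (G9a) work as a pair that places the mark in euchromatin, SUV39H1 and SUV39H2 make the trimethylated form in the heterochromatin around centromeres, and SETDB1 is brought by TRIM28 and KRAB zinc finger proteins to retroelements and imprinted loci. SETDB2 is a relative of SETDB1. The HP1 proteins CBX5 (HP1 alpha), CBX1 (HP1 beta) and CBX3 (HP1 gamma) bind methylated H3K9 through their chromodomain. PCGF6 defines the Polycomb complex PRC1.6, which also holds HP1 gamma, EHMT1 and EHMT2, and which contacts DNA through the E-box binding pair MGA and MAX and through E2F6 with TFDP1. In PSCs these proteins are known for keeping retroelements and germline genes silent.

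Since MGA and MAX read the E-box, the letters CACGTG, which are the same on both strands, were searched in the 250 bases before each RefSeq gene start (GRCh38.p14). RefSeq windows were at hand for 9 of the 10 genes, 13 windows in all, and 4 of these windows held the letters, in EHMT2, CBX5 and SETDB1. The SETDB1 windows overlap and hold the same E-box, which is thus counted in each, and both E-boxes of CBX5 lie in the same window. Among all 35116 windows 6.34% held them, and among all 27305 genes with a window 7.73% did, beside 3 of the 9 genes here. The stretches are shown because EHMT2 and CBX5 had the largest changes in PCGF6-KO cells. Each is printed 5′ to 3′ on the strand of the gene, with the E-box in capitals and 10 bases on either side.
EHMT2, chr6:31897713-31897738, minus strand: ctccctcgccCACGTGacccggggcg
CBX5, chr12:54280314-54280339, minus strand: ttgttgaccgCACGTGtagtaaaatg
CBX5, chr12:54280251-54280276, minus strand: cctctgagaaCACGTGaaatggcggg
SETDB1, chr1:150926205-150926230, plus strand: agtctcttctCACGTGtgcccctgga
The E-box of EHMT2 began 30 bases before the gene start, that of SETDB1 48 bases before the first of its starts, and those of CBX5 207 and 144 bases before its upstream start. Both CBX5 stretches lie in annotated exon sequence of HNRNPA1, which runs the other way from a start 60 bases from that of CBX5. The E2F letters GCGGGAA, searched on both strands, were in none of the 13 windows and in 5.52% of all windows. A match of letters is not a measured binding site, and no match says only that these letters are not in the window.

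PCGF6 itself was first compared as a check of the labels. The normalised read count, in CPM (counts scaled to a common library total, with TMM factors), was 16.5 and 18.0 in the WT libraries, 5.18 and 5.67 in KO1, and 10.3 and 9.91 in KO2. The 4 knockout libraries all lay below WT, by a log2 fold change of −1.67 in KO1 (SE 0.14, edgeR adjusted p = 1.03e-10) and −0.77 in KO2 (SE 0.13, edgeR adjusted p = 1.21e-05). Reads from the remaining exons are still counted, so the gene's count does not measure the loss of protein. Of the pluripotency factors that define PSCs, POU5F1 was at 1416 to 1625 CPM in all 6 libraries, and NANOG was at 119.2 and 143 CPM in WT and 154 to 189 in PCGF6-KO. SOX2 was lower in PCGF6-KO, at 153 to 246 CPM beside 327 in both WT libraries. Several other pluripotency markers also fell and are given below.

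None of the 10 genes rose in PCGF6-KO cells and 3 fell: EHMT2, CBX5 and SUV39H1, by 27.4%, 27.8% and 24.0% of the WT level. The comparison set the 4 libraries of both clones against the 2 of WT with edgeR's quasi-likelihood test, and a gene passed at an adjusted p under 0.05 over all 17672 genes. Of all genes tested, 16.6% passed as lower and 20.5% as higher. No gene of the 10 passed as higher, also not at an unadjusted p under 0.05, by edgeR or by DESeq2. None of the 3 went past the study's fold limit, an absolute log2 fold change over 0.6 beside the adjusted p, which 23.6% of all genes met. For 7 of the 10 genes the 4 PCGF6-KO libraries all lay below both WT libraries, as was the case for 27.6% of all genes tested. The median log2 fold change of the 10 genes was −0.19 and that of all genes was 0.00. Without regard to sign the median was 0.19 for the 10 genes and 0.32 for all genes, and the median SE was 0.07 and 0.15. A smaller SE lets a smaller change pass. The shares of all genes given here and below are therefore not those of genes measured with the same SE.

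**Figure D1:**
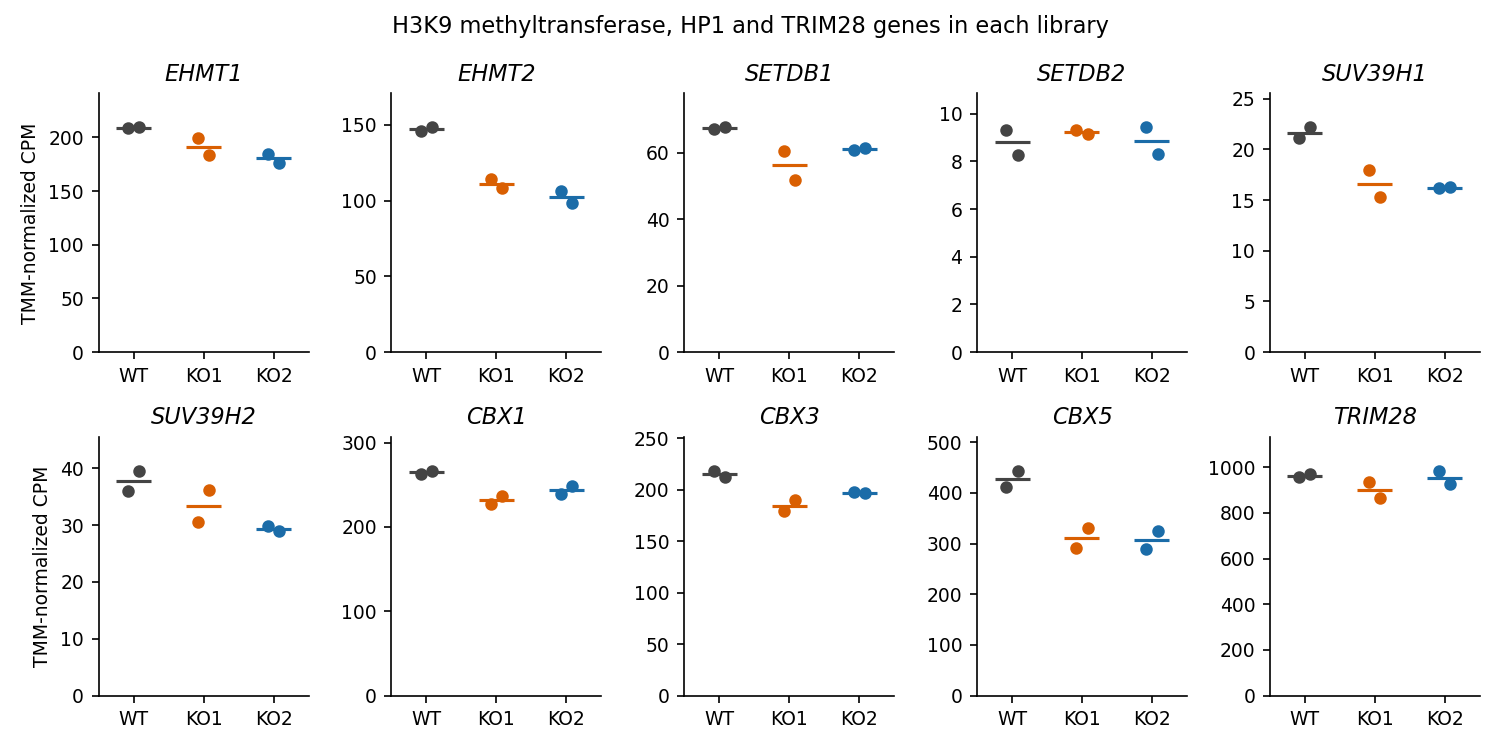
TMM-normalized CPM (vertical axis, from 0) of each of the 10 genes in the WT, KO1 and KO2 libraries, with 1 point a library and a line at the mean of the 2 libraries of a group. All PCGF6-KO points lie below both WT points in EHMT1, EHMT2, SETDB1, SUV39H1, CBX1, CBX3 and CBX5, and the groups overlap in SETDB2, SUV39H2 and TRIM28.

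The levels of the 10 genes in WT were compared per length of transcript, as TPM (counts divided by length and scaled to a common total) computed from the counts and the exon length in the table. TRIM28, the corepressor that KRAB zinc finger proteins recruit, was highest, at 1053 and 1071 TPM, above 99.6% of the genes tested. The HP1 genes came next, with CBX1 at 378 and 385 TPM, CBX3 at 209 and 204, and CBX5 at 122 and 132. EHMT2, at 88.9 and 90.8 TPM, was the highest of the methyltransferases and SETDB2 the lowest, at 6.21 and 5.52 TPM. Between them stood SUV39H2 (44.9 and 49.5 TPM), SETDB1 (42.0 and 42.5), EHMT1 (41.7 and 42.0) and SUV39H1 (27.8 and 29.3). Of the neighbours in this order, only SETDB1 and EHMT1 overlapped between their libraries, and the order rests on 2 WT libraries and on a length that sums all annotated exons. That length was 22217 bases for EHMT1 and 7289 for EHMT2, so exons that these cells do not use would lower the TPM of EHMT1.

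**Figure D2:**
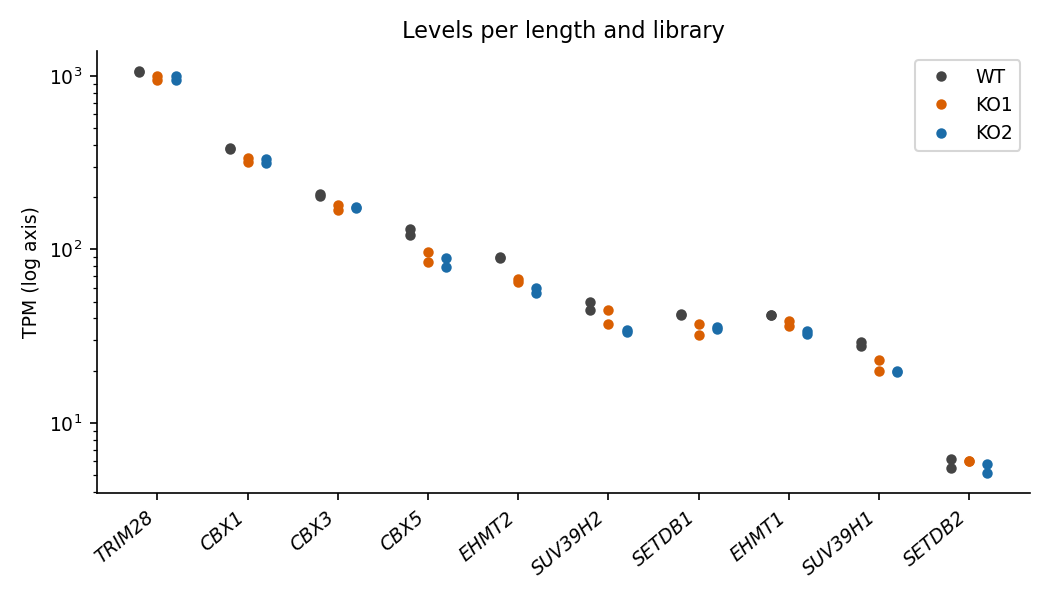
TPM on a log axis of the 10 genes, ordered by the WT mean, with 1 point a library and the groups set side by side. Over all 6 libraries TRIM28 lies between 945 and 1071 TPM and SETDB2 between 5.12 and 6.21 TPM.

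Of the euchromatic pair, EHMT2 fell and EHMT1 did not pass. EHMT2 (chr6:31879759-31897698, minus strand, GRCh38) was at 146 and 148 CPM in WT, 114 and 108 in KO1, and 107 and 98.7 in KO2. Both WT libraries thus lay above all 4 knockout libraries, with 1583 to 2478 counts a library behind these values. The log2 fold change was −0.46 (95% confidence interval −0.62 to −0.30, edgeR adjusted p = 9.01e-04). EHMT1 (chr9:137618992-137870016, plus strand) was at 208 and 210 CPM in WT and at 176 to 199 in the 4 PCGF6-KO libraries, all below WT. Its log2 fold change of −0.17 (SE 0.06) did not pass in PCGF6-KO as a whole (edgeR adjusted p = 0.0690), but did without KO1 replicate 1 (edgeR adjusted p = 0.0341).

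Within a library EHMT2 made up 68.1% and 68.4% of the summed TPM of the pair in WT, and 63.6%, 64.3%, 63.7% and 63.1% in the knockout libraries. These ranges did not overlap, with a difference of −4.55 percentage points (WT 68.2 ± 0.19%, SD, n = 2, PCGF6-KO 63.7 ± 0.49%, n = 4). A 2-sided exact permutation test gave p = 0.0667, the smallest that 2 against 4 libraries allow, and 0.133 after adjustment over the 6 shares compared. The share is a ratio of genes in 1 library and so does not move with the scaling between libraries. EHMT2 shares exon bases with the antisense gene EHMT2-AS1, which held 14 to 19 counts a library.

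Of the pericentromeric pair, SUV39H1 fell and SUV39H2 varied more between libraries. SUV39H1 (chrX:48695554-48709016, plus strand) was at 21.1 and 22.2 CPM in WT, 17.9 and 15.3 in KO1, and 16.2 and 16.3 in KO2. Every PCGF6-KO library lay below WT, and the log2 fold change was −0.40 (SE 0.10, edgeR adjusted p = 0.0137). This call was lost without either WT library, with an edgeR adjusted p of 0.0692 without WT replicate 1 and 0.129 without WT replicate 2. SUV39H2 (chr10:14878820-14904315, plus strand) was at 36.0 and 39.6 CPM in WT, 30.5 and 36.1 in KO1, and 29.8 and 28.9 in KO2. Its KO1 replicate 2 reached the lower WT library, and the log2 fold change of −0.27 (SE 0.10) did not pass (edgeR adjusted p = 0.0738), while without that library it did (log2 fold change −0.33, edgeR adjusted p = 0.0172). SUV39H1 made up 37.2% to 38.2% of the summed TPM of the pair in WT and 30.9% to 38.3% in PCGF6-KO, so the groups overlapped (exact permutation p = 0.667).

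SETDB1, its relative SETDB2 and its partner TRIM28 did not pass in PCGF6-KO as a whole. SETDB1 (chr1:150926263-150964744, plus strand) was at 67.1 and 67.6 CPM in WT, 60.4 and 51.8 in KO1, and 60.6 and 61.4 in KO2, with a log2 fold change of −0.20 (SE 0.08, edgeR adjusted p = 0.0903). All 4 knockout libraries lay below WT, and KO1 replicate 2 lay well below the other three. SETDB2 (chr13:49444274-49495003, plus strand), with 133 to 178 counts a library, was at 8.27 and 9.33 CPM in WT and 8.29 to 9.43 in PCGF6-KO, and its groups overlapped. Its 95% interval, from −0.26 to 0.34 on the log2 scale, is the widest of the 10, and so leaves room for a change as large as that of SETDB1. TRIM28 (chr19:58544064-58550722, plus strand) was at 957 and 969 CPM in WT and 867 to 985 in PCGF6-KO. Its log2 fold change was −0.05, with a 95% interval of −0.20 to 0.09 that does not reach the change of EHMT2. SETDB1 made up 87.1% and 88.5% of the summed TPM of SETDB1 and SETDB2 in WT and 84.2% to 87.5% in PCGF6-KO, and the groups overlapped (exact permutation p = 0.267).

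**Figure D3:**
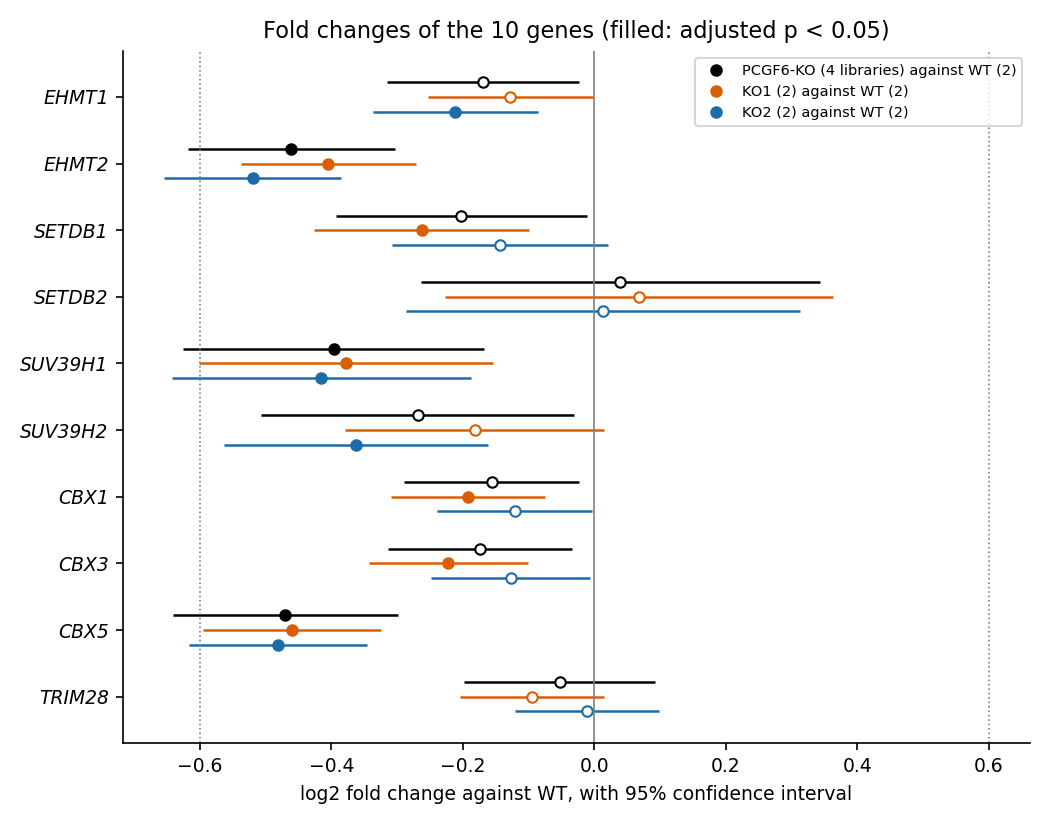
Log2 fold changes against WT (horizontal axis) with 95% confidence intervals for PCGF6-KO as a whole, KO1 and KO2, all against the same 2 WT libraries. Filled points have an adjusted p under 0.05, and dotted lines mark the fold limit of 0.6, which no point crosses.

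Of the HP1 genes, CBX5 fell and CBX1 and CBX3 moved less. CBX5 (chr12:54230942-54280133, minus strand) was at 413 and 444 CPM in WT, 291 and 331 in KO1, and 289 and 325 in KO2. The PCGF6-KO libraries all lay below WT, while the libraries of the clones overlapped, and the log2 fold change was −0.47 (95% interval −0.64 to −0.30, edgeR adjusted p = 0.00128). CBX1 (chr17:48070052-48101478, minus strand) was at 263 and 267 CPM in WT and 227 to 248 in the knockout libraries, for a log2 fold change of −0.16 (SE 0.06, edgeR adjusted p = 0.0656). CBX3 (chr7:26201162-26213607, plus strand), the HP1 gene whose protein is found in PRC1.6, was at 218 and 212 CPM in WT and 180 to 197 in the knockout libraries, for a log2 fold change of −0.17 (SE 0.06, edgeR adjusted p = 0.0545). Both lay below WT in all 4 knockout libraries and neither passed. Under upper-quartile scaling both did, with an edgeR adjusted p of 0.0218 for CBX1 and 0.0189 for CBX3.

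The makeup of the HP1 transcripts was then compared within each library. CBX5 made up 17.2% and 18.3% of the summed HP1 TPM in WT and 14.7%, 15.8%, 13.8% and 14.95% in the knockout libraries, without overlap. CBX1 went the other way, from 53.4% in both WT libraries to 55.0% to 55.8%, also without overlap. The shares of a library sum to the whole, so a lower share of CBX5 raises that of the other HP1 genes together. The higher share of CBX1 is not a separate result, and its CPM was lower than WT in every knockout library. The difference was −2.90 percentage points for CBX5 and 2.12 for CBX1, each with an exact permutation p of 0.0667, the smallest possible, and 0.133 adjusted over the 6 shares. CBX3 overlapped between the groups, at 28.3% to 29.5% in WT and 29.3% to 30.6% in PCGF6-KO. As a share of raw counts, with no length scaling, CBX3 did not overlap, at 23.0% and 24.4% in WT and 25.03% to 27.2% in PCGF6-KO (2.17 percentage points, exact permutation p = 0.0667). HP1 genes have near-identical pseudogene copies: the 9 listed for CBX3 together held at most 48 counts a library, 1.52% of the count of CBX3 at the most, and those of CBX1 and CBX5 held at most 1 and 3 counts.

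**Figure D4:**
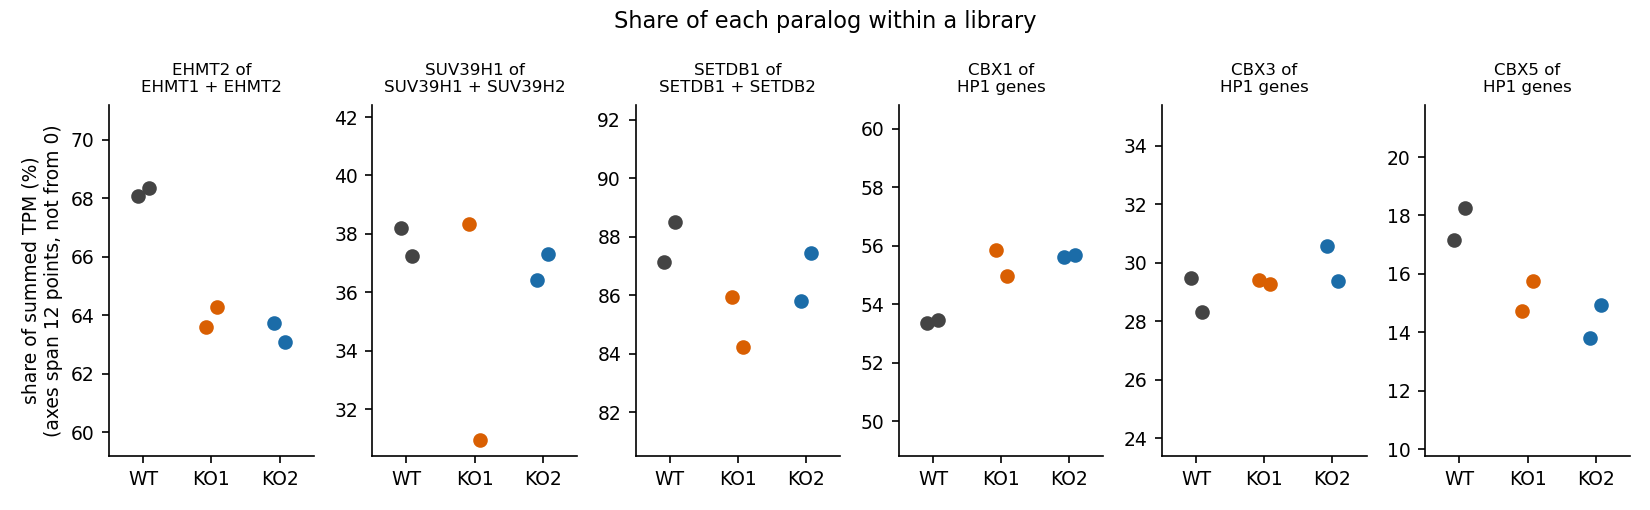
Share of the summed TPM of a gene pair, or of the 3 HP1 genes, held by the named gene in each library (percent, axes spanning 12 points and not starting at 0). EHMT2 and CBX5 lie lower, and CBX1 higher, in all 4 PCGF6-KO libraries than in WT.

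CBX3 and CBX5 each start beside a gene for an RNA-binding protein on the other strand. HNRNPA2B1 begins 367 bases from the CBX3 start and shares exon bases with it, and HNRNPA1 begins 60 bases from the CBX5 start. HNRNPA2B1 was at 1636 and 1679 CPM in WT and 1327 to 1433 in PCGF6-KO, and fell with a log2 fold change of −0.27 (SE 0.06, edgeR adjusted p = 0.00511). HNRNPA1 was at 2854 and 2871 CPM in WT, 2320 and 2185 in KO1, and 2760 and 2714 in KO2. It passed as lower in KO1 (log2 fold change −0.35, edgeR adjusted p = 1.13e-06) and not in KO2 (−0.06, edgeR adjusted p = 0.272), while CBX5 passed in both clones. SETDB1 also shares exon bases with CERS2, SUV39H2 with DCLRE1C, and SUV39H1 and EHMT1 with long noncoding RNA genes. The strand setting of the counting is not given in the sources used here, so reads from such shared bases cannot be told apart.

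The clones were also compared one by one, with WT libraries shared by both comparisons. In KO1 6 of the 10 genes passed as lower (EHMT2, SETDB1, SUV39H1, CBX1, CBX3 and CBX5), beside 21.1% of all genes. In KO2 5 passed as lower (EHMT1, EHMT2, SUV39H1, SUV39H2 and CBX5), beside 24.2% of all genes. None passed as higher in KO1 or in KO2, where at the same adjusted p 24.1% and 26.2% of all genes did. None of the 10 was higher at an unadjusted p under 0.05 either, by edgeR or DESeq2. EHMT2 had a log2 fold change of −0.40 in KO1 and −0.52 in KO2, CBX5 of −0.46 and −0.48, and SUV39H1 of −0.38 and −0.42. With DESeq2 5 genes passed in KO1, since SUV39H1 did not (DESeq2 adjusted p = 0.0560). The count in KO1 was 3 without WT replicate 2, where SETDB1, SUV39H1 and CBX1 no longer passed. Without WT replicate 1 CBX3 was lost in KO1 (edgeR adjusted p = 0.0509), and without KO1 replicate 2 SETDB1 (0.174) and SUV39H1 (0.108) were lost while SUV39H2 passed (0.0302). Without KO1 replicate 1 EHMT1 (0.0265) and TRIM28 (0.0377) also passed in KO1, and without KO2 replicate 2 EHMT1 was lost in KO2 (edgeR adjusted p = 0.0712).

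Set directly against each other, none of the 10 genes passed between KO2 and KO1 by edgeR's quasi-likelihood test, and none had an unadjusted p under 0.05 by edgeR or DESeq2. Of all genes, 10.7% passed as higher and 8.82% as lower in KO2. The genes that passed in 1 clone only are therefore not shown to differ between the clones. The 95% interval of the KO2 against KO1 log2 fold change was −0.25 to 0.02 for EHMT2, −0.16 to 0.11 for CBX5 and −0.38 to 0.02 for SUV39H2, the gene with the largest difference between clones at −0.18. With library totals in place of TMM, EHMT2 was lower in KO2 than in KO1 (log2 fold change −0.19, edgeR adjusted p = 0.0405).

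Genes that work with the 10 were taken from 5 lists. Of 39 such genes 10 passed as lower and 2 as higher, beside 16.6% and 20.5% of all genes tested. The median log2 fold change of the 39 was −0.02. Of the 13 genes for HP1 binding proteins 5 fell and none rose, beside the same shares of all genes, with a median of −0.18. BAHD1, which recruits HP1 and SETDB1 to build silent chromatin, had the largest fall, from 62.9 and 68.9 CPM in WT to 35.7 to 42.5 in PCGF6-KO (log2 fold change −0.76, SE 0.09, edgeR adjusted p = 1.64e-04), and was the one gene of the 39 past the fold limit. The other four, named here after their values were seen, were CHAF1A, a histone chaperone subunit that binds HP1 (log2 fold change −0.41), POGZ (−0.38), the chaperone DAXX (−0.37) and its partner ATRX (−0.25).

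Among the 10 H3K9 demethylases 3 fell and 1 rose, beside 16.6% and 20.5% of all genes. These demethylases, again chosen after their values were seen, were KDM4A (log2 fold change −0.42), JMJD1C (−0.40) and KDM1A (−0.20), and KDM3A, which rose (0.41). CDYL, ATF7IP and TASOR were likewise chosen after their values were seen. Of the 5 partners of EHMT1 and EHMT2 only CDYL, a chromodomain protein that binds the pair, fell (−0.24), and of the 7 partners of SETDB1 and TRIM28 only ATF7IP, which stabilises SETDB1 in the nucleus, fell (−0.47). ATF7IP was at 215 and 229 CPM in WT and 146 to 170 in PCGF6-KO. Of the 4 HUSH genes, TASOR, listed in the table as FAM208A, rose (0.31) and the other three did not pass.

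Of the 13 subunits of PRC1.6 outside the 10 genes 4 rose, 1, PCGF6, fell, and 8 did not pass, beside the 20.5% of all genes that passed as higher. Of those that rose, only YAF2 was past the fold limit, with 1.38 and 1.90 CPM in WT and 8.00 to 11.5 in PCGF6-KO (log2 fold change 2.60, SE 0.24, edgeR adjusted p = 4.81e-05). The others that rose, named after their values were seen, were E2F6, RYBP and HDAC1. E2F6, a DNA-binding subunit, had a log2 fold change of 0.55 (edgeR adjusted p = 0.00151). RYBP had 0.51 (edgeR adjusted p = 7.9e-04) and HDAC1 0.24 (edgeR adjusted p = 0.0428). MAX and MGA, the E-box binding subunits, also named after their values were seen, did not pass, with log2 fold changes of −0.01 and 0.13. TFDP1, the partner of E2F6 and named in the same way, did not pass either (log2 fold change 0.06).

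Other markers moved together with these genes, and their part in the results was not tested. In bulk RNA, fewer cells of a type and less RNA per cell cannot be told apart. The counts of markers below stand beside the 16.6% of all genes that passed as lower and the 20.5% that passed as higher. Of 10 proliferation markers 5 fell and 1 rose (median log2 fold change −0.19). Their summed level was 2599 CPM in both WT libraries, 2076 to 2134 in KO1 and 2282 to 2312 in KO2. All 11 mesendoderm markers tested, of 12 listed, rose, and their sum went from 153 to 155 CPM in WT to 1201 to 1228 in KO1 and 1461 to 1481 in KO2. KDR, named after its values were seen, held most of the WT sum, at 149.5 and 149.3 CPM in WT and 454 to 495 in PCGF6-KO. SOX17, MESP1 and HAND1 were at 0 in both WT libraries. The filter on low counts keeps a gene counted only in PCGF6-KO, as SOX17 and HAND1 were, and such a gene can pass only as higher. That all mesendoderm markers tested rose was therefore in part set by the filter. The same limit holds for ZIC1 and LHX2 below. The neuroectoderm markers, 6 of 9 tested, gave 4 that rose and 1, OTX2, that fell. Their sum was 351 to 396 CPM in WT and 630 to 749 in PCGF6-KO, but NES, named here after its values were seen, held most of it, at 277 and 322 CPM in WT and 592 to 709 in PCGF6-KO. Without NES the sum was 73.7 to 73.9 CPM in WT and 38.5 to 42.5 in PCGF6-KO. OTX2 held most of that, at 72.0 and 72.1 CPM in WT and 28.8 to 31.6 in PCGF6-KO. ZIC1, DLK1 and LHX2 rose from low means of 0.27, 0.79 and 0.27 CPM in WT to 2.80, 4.92 and 1.42 in PCGF6-KO. HES5 was at 0 in WT and in KO2. SOX1 had 0 or 1 counts in every library, with 0 in KO2. Of the 10 pluripotency markers 6 fell and 1 rose. Their sum was 8374.5 to 8722 CPM in WT, 6469 to 6535 in KO1 and 5849 to 5993 in KO2. Past the fold limit were ZFP42 (log2 fold change −7.51), PRDM14 (−1.51), DNMT3B (−1.14) and SOX2 (−0.69). ZFP42 was at 18.7 and 19.7 CPM in WT and at most 0.11 in PCGF6-KO. Of the germline genes that PRC1.6 is known to silence, 5 of 12 passed the filter on low counts, DAZL fell (log2 fold change −2.52, edgeR adjusted p = 4.63e-05) and none rose in PCGF6-KO as a whole. In KO2 taken by itself 1 germline gene rose and 2 fell. TDRD1, named after its values were seen, rose from 10 and 11 counts in WT to 24 in both libraries (log2 fold change 1.13, edgeR adjusted p = 0.0273). DAZL fell in KO2 (log2 fold change −2.67), and so did TEX15, also named after its values were seen (−0.46, edgeR adjusted p = 9.10e-04).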

How the data were processed

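RNA-seq of 6 libraries (WT, KO1 and KO2, 2 each) was used. The authors trimmed reads with Trim Galore 0.6.2, aligned them to GRCh38 with HISAT2 2.1.0 and counted reads per gene with featureCounts, and deposited raw counts with the exon length of each gene. Which annotation release was used, whether strand was used and how multi-mapped reads were treated is not given in the sources used here, and an overlapping gene or near-identical copy can take or lose reads. Total counts were 15877396 to 18918609 a library.

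Counts were tested as deposited with edgeR 4.0.16 in R 4.3.3, with TMM scaling, filterByExpr on genotype, quasi-likelihood fits and Benjamini-Hochberg adjustment over 17672 genes, 2-sided. PCGF6-KO against WT was fitted with 2 genotypes, and the clones with 3 groups. The common coefficient of variation that edgeR estimated was 0.12 with 2 genotypes and 0.052 with 3 groups. TPM came from counts and lengths. The scripts were tested on simulated data. Shares were compared by exact permutation. Positions are from GENCODE 44 (GRCh38), and promoter windows from RefSeq. Alternatives were other scalings and filters, DESeq2 1.42.0, a replicate block, the mean of the clones, the study's fold limit and each library left out. The other libraries of the series, from ChIP-seq, were not analysed here.

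The 10 genes and all lists were chosen with earlier results of these data known. Named beyond the 10 were PCGF6, 3 pluripotency factors, the neighbours at shared starts and genes that share exon bases with the 10. Of each list, at most 4 genes past the fold limit with the same sign in both clones could be named. MCM5, CDX2, TBXT and EOMES met this rule and are not described. SOX17, MESP1, HES5 and SOX1 were named after their values were seen, for counts at or near 0 in WT. Others are said to be chosen after their values were seen. Replicate numbers were not used to pair the libraries in the main fits. The differences between replicates 1 and 2 correlated weakly but positively, at 0.0589 (WT with KO1), 0.0659 (WT with KO2) and 0.19 (KO1 with KO2) over 15104 genes. The cause of these correlations was not tested.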

Additional observations from a re-analysis of the deposited data

Results flagged for a closer look

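SETDB1 had 1 library apart from the others of its kind. Among the 4 PCGF6-KO libraries, KO1 replicate 2 was at 51.8 CPM and the other three at 60.4 to 61.4 CPM, so the gap made up 0.898 of the range, above Dixon's 95% critical value for 4 libraries. Chance flags about 1 in 20 such groups, and 10 genes were looked at. Without that library the log2 fold change of SETDB1 in KO1 was −0.14 (edgeR adjusted p = 0.174), beside −0.26 (edgeR adjusted p = 0.00851) with it.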

How the results depend on the processing

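EHMT2 and CBX5 passed as lower in PCGF6-KO in all 16 fits, with log2 fold changes of −0.51 to −0.42 and −0.52 to −0.42, and SUV39H1 in 14. The 3 genes lower in PCGF6-KO became 6 with upper-quartile scaling, 7 with library totals and 8 with the mean of the clones, which also took the related genes that passed from 12 to 22. Over all genes the share that passed as lower went from 16.6% to 18.7%, 19.4% and 25.5% under the same settings. The mean of the clones came from the fit with 3 groups, whose spread leaves out the difference between the clones. KO2 went from 5 to 8 with upper-quartile scaling and with library totals, and KO2 against KO1 from 0 to 1 with library totals. With the fold limit no member passed in PCGF6-KO, KO1 or KO2 (0 each), and 1 related gene did. Leaving out 1 library gave 3 to 8 genes in KO1. With the replicate block, which the numbers were not shown to support, 3 genes were lower in PCGF6-KO, beside 15.2% of all genes. With the same block 8 passed in KO1 and 7 in KO2, and 12 related genes passed. With the libraries of each clone summed, an alternative chosen after seeing the data, 3 genes were lower, beside 12.9% of all genes. For KO1, KO2 and KO2 against KO1 the shares of all genes under these alternatives are not given here. Their counts of genes therefore cannot be set beside such a share.

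Fold changes near 0 changed sign. SETDB2 went to −0.012 (PCGF6-KO) and −0.076 (KO2) with library totals, and to −0.032 (KO2) with upper-quartile scaling. With 1 library left out SETDB2 gave −0.044 to 0.127 in PCGF6-KO, −0.0102 to 0.155 in KO1, −0.0772 to 0.103 in KO2 and −0.154 to 0.0326 between the clones. TRIM28 in KO2 went to 0.006 with at least 10 counts in every library and to −0.0479 to 0.0353 with 1 left out. Between the clones CBX1 went to −0.0036 with library totals, SUV39H1 gave −0.152 to 0.0876 and CBX5 −0.108 to 0.0679 with 1 left out. Of the other values, 28 came to pass and 10 no longer passed, all in the same direction. The cause of these moves was not tested. The median of all genes moved from 0.00 to −0.03 and −0.05 under these scalings. With 2 libraries a group, small changes such as those of EHMT1, CBX1 and CBX3 sit near the limit of the test.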
